A study of Mus musculus with 19 samples.

Results

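The odorant transduction genes of olfactory sensory neurons were followed through sorted cells of the mouse nose. The set holds 10 genes taken by symbol (Omp, Gnal, Adcy3, Cnga2, Cnga4, Cngb1, Ano2, Stoml3, Rtp1 and Rtp2), out of 27179 genes in the count table, and all 10 have a row in the authors' normalized table of 26221 genes. Their level was read in each library, not in single cells.

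All libraries came from nasal epithelium of naive B6.Cg mice with the transgene Tg(RP23-268L19-EGFP)2Mik, also written ChAT(BAC)-eGFP, in which a bacterial artificial chromosome places enhanced green fluorescent protein (eGFP) under regulatory sequence of the choline acetyltransferase gene. The transgene is carried by the mice of every group, and the labels give no age. Live cells negative for the leukocyte marker CD45 and positive for the epithelial marker EpCAM were sorted into 3 groups. FSClow (9 libraries) and FSChi (5 libraries) hold eGFP-positive cells of low and of high forward and side scatter, which the submitters identify as brush cells, and EpCAM (5 libraries) holds eGFP-negative cells. EpCAM is therefore a mixture of the remaining epithelial cell types, and the eGFP-positive groups are defined by a transgene and by scatter, not by a neuronal marker. The labels do not tie libraries to separate animals, so p-values measure only the spread between these libraries, which may be technical.

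In an olfactory sensory neuron, an odorant binds a receptor on the cilia, the receptor activates a stimulatory G protein, and adenylyl cyclase makes cyclic AMP. Cyclic AMP opens a cation channel built of different subunits, and the calcium that enters opens a chloride channel that adds to the depolarisation. Receptor transporting proteins help odorant receptors reach the cell surface, and olfactory marker protein is the classical label of the mature neuron.

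Promoters of the set were read to show the stretch upstream of the genes that move together below. RefSeq (GRCm38.p6) gave 250 bases before an annotated start for 7 of the 10 genes, in 10 windows. They were searched on both strands for CCCNNGGGA, a core of the motif bound by EBF (early B cell factor) proteins of olfactory neurons, for the same core preceded by T, which overlaps it, and for the homeodomain core TAATTA. CCCNNGGGA occurred in 5.60% of all 32851 windows of this length and in 2 of the 10 windows of the set, 1 of Cnga2 and 1 of Ano2, starting 67 bases before the start in each. The longer EBF form (0.779% of windows) and TAATTA (4.84%) were in none of the 10. The windows of Cnga2 (chrX:71991599-71991848, plus strand), of an internal start of Ano2 (chr6:125710938-125711187, plus strand) and of Stoml3 (chr3:53488457-53488706, plus strand) follow. These genes are shown because Cnga2 and Ano2 ranked the FSChi libraries alike in the normalized table and Stoml3 ranked them differently. Rtp1 ranked them as Cnga2 and Ano2 did but had no window. For Ano2, replicates 4 and 5 were nearly equal (93.79 and 93.7). Whether the match goes with the ranking was not tested. After TMM scaling replicate 4 was highest for Cnga2 and replicate 5 for Ano2. The Ano2 window shown is the one with the match. Its windows at chr6:125690169-125690418 and chr6:125690369-125690618 held no match and are not shown. Capitals mark the CCCNNGGGA match as it reads on the plus strand.
Cnga2: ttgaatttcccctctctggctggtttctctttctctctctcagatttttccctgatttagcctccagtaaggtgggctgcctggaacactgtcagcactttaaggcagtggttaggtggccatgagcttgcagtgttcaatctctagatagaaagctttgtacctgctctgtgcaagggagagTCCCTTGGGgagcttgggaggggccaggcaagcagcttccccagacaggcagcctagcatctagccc
Ano2: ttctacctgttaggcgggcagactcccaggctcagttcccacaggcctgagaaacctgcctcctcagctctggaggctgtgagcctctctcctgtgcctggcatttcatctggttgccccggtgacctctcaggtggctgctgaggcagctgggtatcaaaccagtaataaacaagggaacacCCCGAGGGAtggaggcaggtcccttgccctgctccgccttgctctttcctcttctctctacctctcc
Stoml3: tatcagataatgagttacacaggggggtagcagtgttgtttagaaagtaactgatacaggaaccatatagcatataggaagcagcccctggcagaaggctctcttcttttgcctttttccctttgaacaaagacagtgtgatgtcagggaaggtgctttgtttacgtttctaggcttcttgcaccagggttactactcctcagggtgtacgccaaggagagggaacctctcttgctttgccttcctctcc
A match describes these letters only, and no match says nothing about the factor.

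The libraries held 1348428 (FSChi replicate 2) to 7477695 (FSChi replicate 3) counts. Tuft and brush cell markers summed to 24920 to 39050 normalized read counts in FSChi, 28630 to 38750 in FSClow and 40.7 to 108 in EpCAM. FSChi replicate 2 stood apart from the other FSChi libraries: the 10 genes took 28 reads there, 0.00208% of the library, against 0.141% to 0.316% in FSChi replicates 1, 3, 4 and 5. In the same library the tuft markers summed to 39050, and Gnat3 (8257) and Stom (342) were above every FSClow library. Results on FSChi include FSChi replicate 2 unless stated, and the calls of the 10 genes are also given without it. The authors' files of single libraries do not all carry the number of the table column they resemble: for 5 of 19 files the most similar column had another number within the same group, and the file of FSChi replicate 3 held only 6807 counts. The mismatch stays within groups, and the values below come from the tables unless RSEM, which estimates counts per gene, is named. In bulk RNA, fewer cells of a type and less RNA per cell cannot be told apart.

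Levels are normalized read counts, the authors' counts divided by a size factor of the library, in the order of replicates 1 to 5. A call is an edgeR quasi-likelihood test with a Benjamini-Hochberg adjusted p under 0.05 over 13340 genes. All 10 genes passed the filter on low counts. Genes nearly absent from FSClow passed only through the groups where they are high, so counts and medians over the set describe it and are no support for a difference. Most genes of the set were at their highest in EpCAM, all were low or nearly absent in FSClow, and 4 of 5 FSChi libraries lay in between or reached the EpCAM range. FSClow was lower than EpCAM for 10 of 10 genes, where 45.1% of all tested genes were called and 23.1% were called lower. FSChi was lower than EpCAM for 5 of 10 genes (25.6% of all genes called, 12.2% lower). FSChi was higher than FSClow for 10 of 10 (24.8% called, 15.5% higher). The median log2 fold changes of the 10 genes were -7.22, -1.42 and 6.06 in these comparisons, against 0.05, -0.02 and -0.01 over all tested genes. The comparisons share libraries and are not independent of each other.

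**Figure D1:**
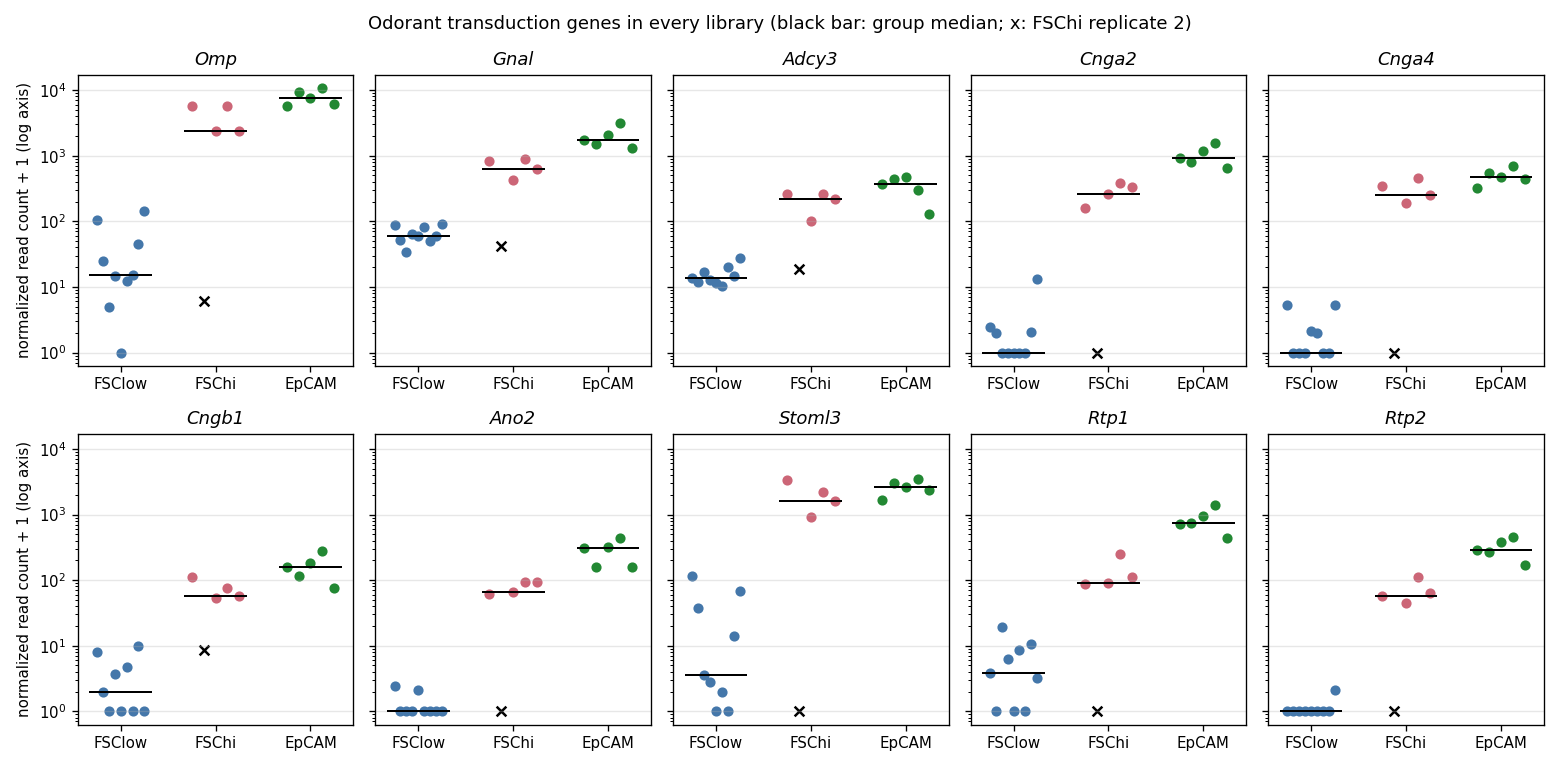
Normalized read count + 1 on a log axis for each of the 10 genes, with a point per library, by group; the black bar is the group median and the cross is FSChi replicate 2. Omp lies at 5629.6 to 10759 in EpCAM and at 0 to 145 in FSClow, and the cross falls inside the FSClow range in every panel.

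Omp (olfactory marker protein, Entrez 18378, chr7:98143359-98145447, mm10), a cytoplasmic protein of mature olfactory neurons, stood at 5629.6, 9295, 7482, 10759 and 6069 in the EpCAM libraries. The FSChi libraries held 5644, 5.10, 2400.4, 5818 and 2381. FSClow ranged from 0 through a median of 14.1 to 145. FSChi replicates 1 and 4 thus reached the lower end of EpCAM, replicates 3 and 5 lay below it, and replicate 2 lay among the FSClow libraries. No FSClow library overlapped EpCAM, and the log2 fold change was -7.37 ± 1.08 (SE; adjusted p = 2.2e-05, edgeR). FSChi against EpCAM gave -1.11 ± 1.07 (adjusted p = 0.49), or -0.78 (adjusted p = 0.56) without FSChi replicate 2, and was not called. FSChi was above FSClow by 6.26 ± 1.04 (adjusted p = 0.00026).

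Gnal encodes the alpha subunit of the stimulatory G protein of these neurons (Entrez 14680, chr18:67088298-67226792). It stood at 1709, 1534, 2084, 3179 and 1309 in EpCAM and at 836, 40.8, 427, 876 and 630.4 in FSChi. FSClow libraries held 32.7 to 88.8, with a median of 58.9. Gnal, like Adcy3 and no other gene of the set, had reads in all 9 FSClow libraries, including FSClow replicate 5, where Omp was at 0. All FSChi libraries were below all EpCAM libraries, and the log2 fold change of -1.63 ± 0.45 (SE) passed the test (edgeR adjusted p = 0.0092, and 0.002 without FSChi replicate 2). With only FSChi and EpCAM in the fit it did not (adjusted p = 0.067). The difference of FSClow from EpCAM was -4.72 ± 0.40 on the log2 scale (adjusted p = 2.3e-09), and FSChi was above FSClow by 3.08 ± 0.39 (adjusted p = 3.7e-06). Exons of Gnal overlap those of Mppe1 on the opposite strand over 852 bases, and no source says whether the counting used strand. RSEM assigned 548 reads to Gnal in FSClow where the count table has 575.

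Adcy3, the adenylyl cyclase of olfactory cilia (Entrez 104111, chr12:4133116-4213525), stood at 373, 444, 478, 303 and 128 in EpCAM. The FSChi libraries held 257, 17.9, 101, 259 and 215, and the FSClow libraries 9.47 to 26.3 with a median of 12.8. The FSChi and EpCAM ranges overlapped, and their difference of -0.83 ± 0.41 (SE) was not called (edgeR adjusted p = 0.15, and 0.24 without FSChi replicate 2). Against EpCAM, FSClow was lower (-4.34 ± 0.39, adjusted p = 3.9e-09), and FSChi was above FSClow by 3.51 ± 0.39 (adjusted p = 6.6e-07). The low end of Adcy3 depends on how reads were assigned. Its exons share 1380 bases with Cenpo on the opposite strand, and its reads in FSClow number 129 in the count table and 23 by RSEM, while in EpCAM they number 2509 and 3071. With RSEM counts the log2 fold change of FSClow against EpCAM was -7.11, and of FSChi against FSClow 6.12, in place of -4.34 and 3.51.

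The cyclic nucleotide-gated channel is built of Cnga2, which carries the binding and pore function, and the modulatory subunits Cnga4 and Cngb1. Cnga2 (Entrez 12789, chrX:71991849-72010218) stood at 929, 795, 1169.9, 1557 and 658 in EpCAM and at 161, 0, 257, 387 and 337 in FSChi. FSClow ranged from 0 to 12.1 with a median of 0. Every FSChi library was below every EpCAM library. The log2 fold change of FSChi against EpCAM, -1.99 ± 0.67 (SE), passed narrowly (edgeR adjusted p = 0.037, and 0.013 without FSChi replicate 2). That call was lost without any of 5 single libraries: FSChi replicate 1 (adjusted p = 0.069) or 3 (0.061), or EpCAM replicate 1 (0.051), 3 (0.06) or 4 (0.076). It was also lost with DESeq2 (adjusted p = 0.18). The log2 fold change of FSClow against EpCAM was -8.95 ± 0.80 (adjusted p = 2.9e-08), and that of FSChi against FSClow 6.96 ± 0.79 (adjusted p = 3.5e-06). These became -10.55 and 8.57 without FSClow replicate 9, which holds most of the reads of Cnga2 in its group.

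Cnga4 (Entrez 233649, chr7:105400024-105408775) stood at 318, 546, 475, 697 and 445 in EpCAM and at 347, 0, 191, 452 and 249.9 in FSChi, so FSChi replicates 1 and 4 lay inside the EpCAM range. FSClow held 0 to 4.38. FSChi against EpCAM was not called (-0.83 ± 0.59 SE, edgeR adjusted p = 0.33). Cnga4 was lower in FSClow than in EpCAM (-8.58 ± 0.76, adjusted p = 1.2e-08, or -9.20 without FSClow replicate 9) and higher in FSChi than in FSClow by 7.75 ± 0.76 (adjusted p = 3.5e-07), or 8.37 without that library. Cngb1 (Entrez 333329, chr8:95239043-95306585) stood at 155, 116, 183, 279 and 76.0 in EpCAM, at 111, 7.66, 51.7, 75.2 and 56.7 in FSChi, and at 0 to 8.94 in FSClow. FSChi replicate 1 was its only FSChi library inside the EpCAM range. FSChi against EpCAM was not called (-1.21 ± 0.56 SE, edgeR adjusted p = 0.12). Cngb1 was lower in FSClow than in EpCAM (-5.47 ± 0.58, adjusted p = 4.6e-08, or -6.17 without FSClow replicate 8) and higher in FSChi than in FSClow by 4.27 ± 0.58 (adjusted p = 9.2e-06), or 4.96 without that library. The subunits did not hold 1 ratio: Cnga2 had 0.464 to 1.35 reads per Cnga4 read in FSChi replicates 1, 3, 4 and 5, and 1.46 to 2.92 in EpCAM.

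Ano2, the calcium-activated chloride channel of the cilia (Entrez 243634, chr6:125690419-126040133), stood at 306, 157, 315, 444 and 158 in EpCAM and at 59.9, 0, 64.6, 93.8 and 93.7 in FSChi. Its FSClow libraries had 2 reads in all, 1 each in replicates 1 and 5. The groups did not overlap between FSChi and EpCAM, and the log2 fold change of -1.94 ± 0.47 (SE) passed the test (edgeR adjusted p = 0.0038, and 0.0011 without FSChi replicate 2). With 2 reads in FSClow, the fitted fold depends on the model's prior, so the ratio of pooled reads is given: 1090 for EpCAM over FSClow (95% counting interval 301 to 9008) and 308 for FSChi over FSClow (84.7 to 2549). Both comparisons were called (adjusted p = 5.6e-11 and 4.2e-08).

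Stoml3, a stomatin-like membrane protein of the neuron's cilia (Entrez 229277, chr3:53488707-53508863), stood at 1638, 2975, 2671, 3460.2 and 2326 in EpCAM and at 3397, 0, 902, 2194 and 1631 in FSChi. FSClow ranged from 0 through a median of 2.62 to 114. FSChi replicate 1 was near the top of the EpCAM libraries, replicate 4 was inside their range, and replicate 2 had no read. Stoml3 was the gene of the set nearest to EpCAM in FSChi: the mean of FSChi replicates 1, 3, 4 and 5 was 77.7% of the EpCAM mean, and the log2 fold change of -0.52 ± 1.17 (SE) was not called (edgeR adjusted p = 0.79). In FSClow against EpCAM it was called lower (-6.39 ± 1.17, adjusted p = 0.00022, or -7.14 without FSClow replicate 1), and in FSChi against FSClow higher by 5.87 ± 1.15 (adjusted p = 0.0012), or 6.62 without that library.

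Rtp1 and Rtp2, which carry odorant receptors to the cell surface, were the genes of the set lowest in FSChi relative to EpCAM. Rtp1 (Entrez 239766, chr16:23429133-23433960) stood at 725, 739, 938, 1408 and 435 in EpCAM and at 86.4, 0, 90.5, 253 and 109.9 in FSChi, with 0 to 18.3 in FSClow. Rtp2 (Entrez 224055, chr16:23925548-23930794) stood at 285, 266, 383, 458 and 171 in EpCAM and at 55.4, 0, 43.9, 109 and 63.6 in FSChi. All FSChi libraries were below all EpCAM libraries for both genes. The log2 fold changes of FSChi against EpCAM were -2.78 ± 0.68 for Rtp1 (SE, edgeR adjusted p = 0.005, and 0.0021 without FSChi replicate 2) and -2.31 ± 0.45 for Rtp2 (adjusted p = 0.00052, and 6e-05 without it). Rtp1 gave -3.38 without FSChi replicate 4, its highest FSChi library. Rtp1 was lower in FSClow than in EpCAM by -7.07 ± 0.69 (adjusted p = 6.5e-08) and higher in FSChi than in FSClow by 4.29 ± 0.67 (adjusted p = 9.1e-05). Rtp2 had 1 read in all 9 FSClow libraries, in replicate 9, so ratios of pooled reads are given: 2429 for EpCAM over FSClow (95% counting interval 435.5 to 95970) and 542.5 for FSChi over FSClow (96.8 to 21480), both called (adjusted p = 1.2e-11 and 2.5e-08).

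**Figure D2:**
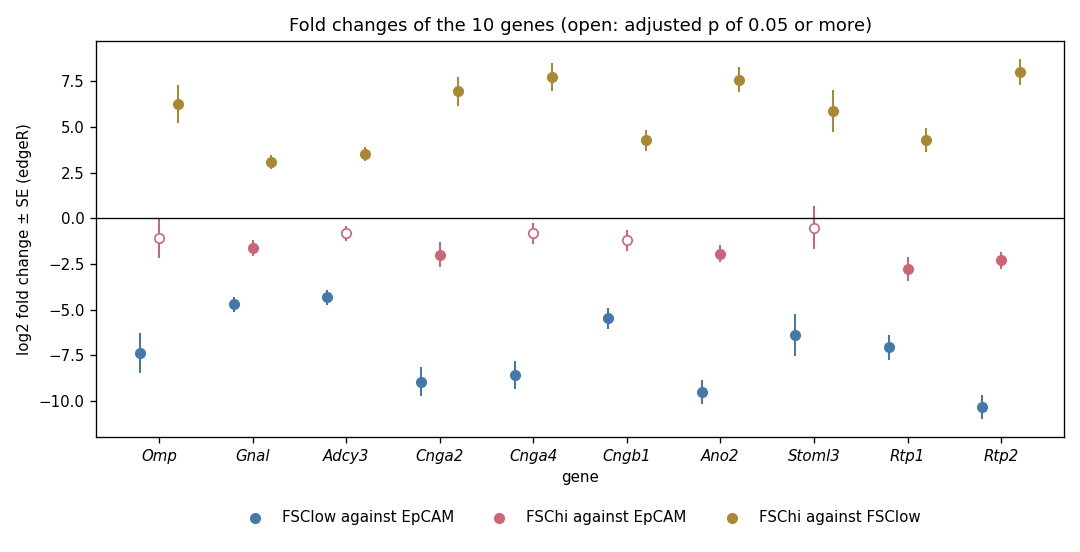
Log2 fold change from edgeR for each gene in the 3 comparisons, ± an SE derived from its F statistic. Filled points passed an adjusted p of 0.05 and open points did not. All 10 genes are filled below 0 for FSClow against EpCAM and filled above 0 for FSChi against FSClow, while FSChi against EpCAM has 5 filled points, at Gnal, Cnga2, Ano2, Rtp1 and Rtp2.

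Without FSChi replicate 2 the same 5 genes were called lower in FSChi than in EpCAM, and all 10 stayed called above FSClow. The libraries of FSChi lay wholly below EpCAM for those same 5 genes (13.4% of all tested genes did so, 14.6% without FSChi replicate 2). No gene of the set had FSChi wholly above FSClow with all 5 libraries (4.63% of all genes did), and all 10 did without replicate 2 (8.69%). FSClow lay wholly below EpCAM for all 10 (18.2%). The mean of the 4 remaining FSChi libraries was 15.9% of the EpCAM mean for Rtp1, 21.8% for Rtp2, 27.9% for Cnga2, 28.3% for Ano2 and 35.3% for Gnal. It was 45.5% for Cngb1, 51.8% for Omp, 60.3% for Adcy3, 62.5% for Cnga4 and 77.7% for Stoml3.

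Levels between genes were compared per length, in the authors' TPM (transcripts scaled to gene length and library total). In the EpCAM files the order was Omp (1720 ± 452, SD, n = 5), Stoml3 (866 ± 216), Gnal (150.2 ± 55.2), Cnga2 (150.1 ± 53.3), Rtp1 (121 ± 50.2), Cnga4 (90.3 ± 24.3), Rtp2 (57.6 ± 19.2), Adcy3 (40.3 ± 13.5), Ano2 (33.7 ± 13.1) and Cngb1 (12.6 ± 5.57). Omp and Stoml3 stood above the rest in every file. Neighbours in the order from Gnal to Cnga4, and from Rtp2 to Ano2, differed by less than the larger of their SDs. In the 3 FSChi files with usable depth and neuronal reads, Cnga4 (58.1 ± 22.7, SD, n = 3) was above Cnga2 (41.9 ± 19.5), with overlapping ranges. Rtp1 fell to 20.3 ± 14.1, below Adcy3 at 22.7 ± 9.59, again with overlapping ranges. These files most resembled FSChi replicates 1, 3 and 4 of the normalized table, and no usable file resembled replicate 5. In counts not scaled to length, Cnga2 had 0.464, 1.345, 0.856 and 1.347 reads per Cnga4 read in replicates 1, 3, 4 and 5.

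Across the 5 FSChi libraries the genes moved in common at the bottom of the range. FSChi replicate 2 was lowest for 10 of 10 genes, and 6 of them had no read there (Cnga2, Cnga4, Ano2, Stoml3, Rtp1 and Rtp2). A count of 0 in that library allows up to 7.66 normalized read counts (3 reads, counting error only), well under the other FSChi libraries. Omp (5.10), Gnal (40.8), Adcy3 (17.9) and Cngb1 (7.66, or 3 reads) lay inside their FSClow ranges there. For Adcy3 this depends on how reads were assigned. By RSEM it had 8 reads in FSChi replicate 2 and 1 to 6 in the FSClow libraries, which all held more counts. Among the others the genes did not keep 1 order. Replicate 3 was next above replicate 2 for 6 genes. For Cnga2, Ano2 and Rtp1, however, replicate 1 took that place, although it was highest for Cngb1 and Stoml3 and close to the highest for Omp, Gnal and Adcy3. Replicate 4 was highest for 8 genes in the normalized table and for 4 after TMM scaling, when replicate 1 was highest for 5, so which of those 2 libraries leads depends on the scaling. With 5 libraries no correlation is given.

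**Figure D3:**
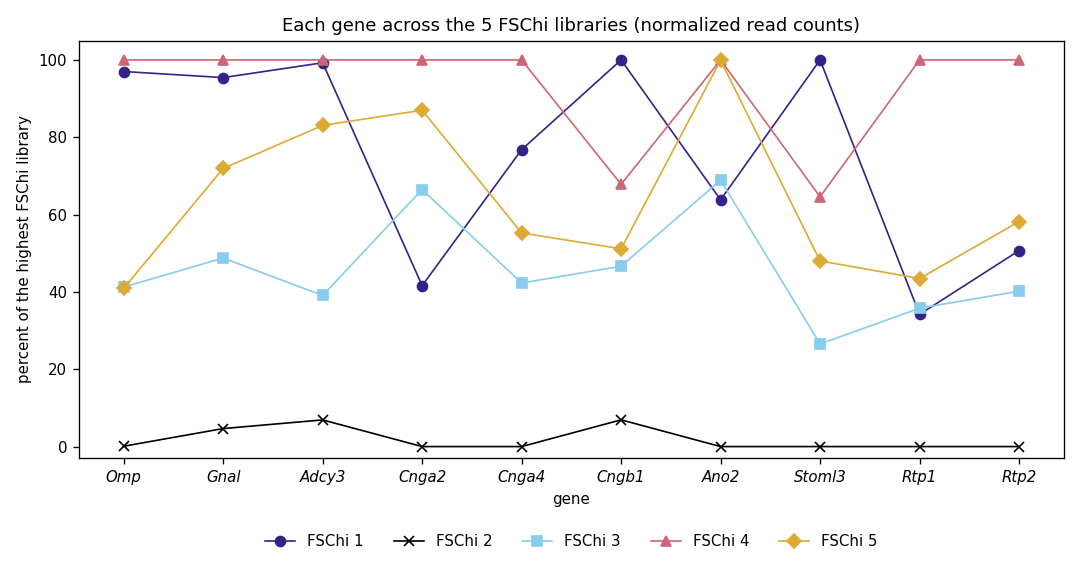
Normalized read count of each gene in the 5 FSChi libraries as a percentage of that gene's highest FSChi library; lines join the genes of 1 library and carry no order. Replicate 2 stays near 0 throughout, and replicate 1 is high for Omp, Gnal, Adcy3, Cngb1 and Stoml3 but the lowest of the other libraries for Cnga2, Ano2 and Rtp1.

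To compare the composition of the signal, reads of each gene were set per 100 Omp reads in the same library, in the libraries of FSChi and EpCAM with at least 100 Omp reads, a minimum chosen after the values were seen (FSChi replicate 2, with 2 Omp reads, drops out). Within the set, only Rtp1 and Rtp2 separated the groups. Rtp1 had 1.53, 3.77, 4.34 and 4.62 reads per 100 Omp reads in FSChi replicates 1, 3, 4 and 5, and 12.9, 7.95, 12.5, 13.1 and 7.16 in EpCAM. Rtp2 had 0.982, 1.83, 1.88 and 2.67 against 5.07, 2.86, 5.11, 4.26 and 2.81. All FSChi libraries were lower for both genes, and the FSChi means were 0.332 and 0.458 times the EpCAM means. Of all tested genes 3.07% lay wholly lower by this measure and 18.5% wholly higher. Outside the set, the pathway gene Pde1c and the mature neuron genes Stmn2, Ncam1 and Ebf1 were among those wholly lower. Ncam2 overlapped, and Gng13 and Nrgn lay wholly higher. A lower ratio to Omp was thus not particular to Rtp1 and Rtp2.

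The other 7 ratios overlapped between the groups. Stoml3 had 60.2, 37.6, 37.7 and 68.5 reads per 100 Omp reads in FSChi against 29.1 to 38.3 in EpCAM, so replicates 1 and 5 were above the EpCAM libraries. Cnga2 had 2.85, 10.7, 6.65 and 14.1 against 8.55 to 16.5, and Ano2 had 1.06, 2.69, 1.61 and 3.94 against 1.69 to 5.43. In both, FSChi replicate 1 was lowest, replicate 4 next, then 3, then 5, and Gnal and Cnga4 had the same order. Replicate 5 had the highest FSChi ratio for every gene of the set. Omp, the shared denominator, stood at 5644 and 5818 normalized read counts in replicates 1 and 4. It stood at 2400.4 and 2381 in replicates 3 and 5. For Cnga2 and Ano2 the highest FSChi ratio was 4.95 and 3.71 times the lowest. For Gnal, Adcy3, Cnga4, Cngb1 and Stoml3 it was 1.71 to 2.14 times. Gnal had 14.8 to 26.5 against 16.5 to 30.4, and Cnga4 6.15 to 10.5 against 5.65 to 7.34.

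**Figure D4:**
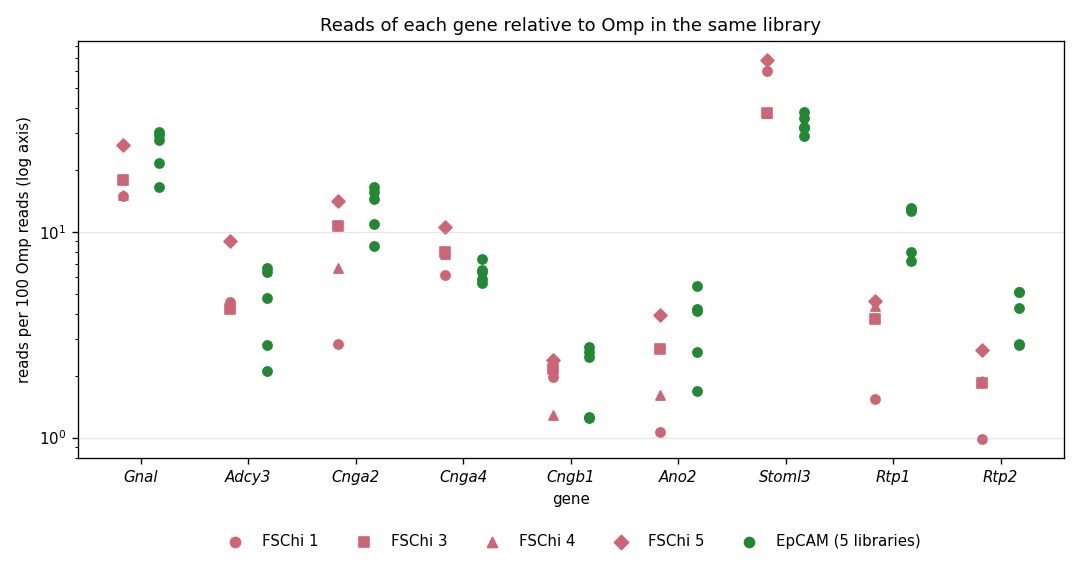
Reads of 9 genes per 100 Omp reads on a log axis, for FSChi replicates 1, 3, 4 and 5 (one marker shape each) and the 5 EpCAM libraries. Rtp1 and Rtp2 lie lower in FSChi without overlap, at 1.53 to 4.62 against 7.16 to 13.1 and 0.982 to 2.67 against 2.81 to 5.11, and the FSChi libraries spread most for Cnga2 and Ano2.

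The other genes of the pathway were read from a list of 12, of which 11 were in the count table (Gfy was not analysed here) and 10 were tested (Arrb2 was not). FSClow against EpCAM gave 8 lower and 1 higher (of all genes 23.1% lower and 22.0% higher), with a list median of -2.08. FSChi against EpCAM gave 5 lower and 2 higher (12.2% and 13.5%), and FSChi against FSClow 8 higher and none lower (15.5% and 9.30%). Without FSChi replicate 2 that last count was 8 higher and 1 lower. Pde4a, a cyclic AMP phosphodiesterase, was nearly absent from FSClow (0 to 2.56) and stood at 456 to 838 in EpCAM, much like the members (log2 fold change -8.69 ± 0.63 SE, edgeR adjusted p = 3.2e-10). Reep1, a receptor accessory protein, was lower by -5.86 ± 0.68 and the phosphodiesterase Pde1c by -3.05 ± 0.32. Ric8b, a guanine nucleotide exchange factor and chaperone of the Gnal protein, was lower by -2.20 ± 0.19, with 89.7 to 170 in FSClow. In FSChi against EpCAM, the genes called lower were Ric8b (-0.78 ± 0.22), Reep1 (-2.48 ± 0.66), Pde1c (-1.63 ± 0.37), Pde4a (-1.68 ± 0.51) and the chloride loading cotransporter Slc12a2 (-1.71 ± 0.38).

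Gng13, a G protein gamma subunit shared by olfactory and taste transduction, ran the other way. It stood at 1444, 692, 446, 579 and 908 in FSChi and at 121 to 280 in EpCAM, a rise of 2.13 ± 0.39 (SE, edgeR adjusted p = 0.00025), and FSChi replicate 2 was not low for it. Grk3, a receptor kinase that shuts off odorant signalling, was higher in FSClow than in EpCAM by 1.91 ± 0.34 and in FSChi by 1.13 ± 0.37, with its highest FSChi value, 158, in replicate 2. Without that library Grk3 was not called between FSChi and EpCAM (0.73, adjusted p = 0.12), and it was called lower in FSChi than in FSClow (-1.2, adjusted p = 0.006, against -0.78 and 0.083 with all libraries). Gnb1 and Slc24a4 were lower in FSClow than in EpCAM (-1.83 ± 0.22 and -1.97 ± 0.47) and not called between FSChi and EpCAM. With the authors' size factors Gnb1 was called lower in FSChi (adjusted p = 0.018), and Grk3 was not called (0.065).

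Relatives of the members in the same gene families did not follow them as a group. Of 19 relatives 14 were tested. In FSClow against EpCAM 7 were higher and 2 lower (5 and 3 with the authors' size factors), and in FSChi against EpCAM 5 and 2. Gnat3, the taste G protein alpha subunit, stood at 2420 to 10263 in FSChi, 307 to 752 in FSClow and 0 to 19.6 in EpCAM, and its highest FSChi libraries were replicates 5, 1 and 2. Gnas, the widely expressed stimulatory alpha subunit, was higher than EpCAM by 0.75 ± 0.18 in FSClow and 0.90 ± 0.20 in FSChi (SE, edgeR adjusted p = 0.0012 and 0.0015). Among adenylyl cyclases, Adcy9 was higher by 1.99 ± 0.37 and 1.89 ± 0.40, and Adcy6 by 0.72 ± 0.25 in FSClow, a call lost with the authors' size factors (0.50, adjusted p = 0.12). Among anoctamins, the scramblase Ano6 and Ano10 were higher in FSClow by 2.42 ± 0.24 and 1.87 ± 0.27 and in FSChi by 1.5 ± 0.25 and 2.28 ± 0.30, while the chloride channel Ano1 was lower by -6.68 ± 0.80 and -3.48 ± 0.79. Stom, the founding stomatin, was lower by -6.60 ± 0.41 and -1.24 ± 0.41, and the second of these calls was lost without FSChi replicate 2 (adjusted p = 0.077). Cnga1 and Rtp3 had no reads in any library, and Cngb3 reached at most 10.3.

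Other markers of neurons moved with the set. Of 12 further genes of mature olfactory neurons, 11 were lower in FSClow than in EpCAM and 8 in FSChi than in EpCAM (6 without FSChi replicate 2), and 10 were higher in FSChi than in FSClow. Their sums were 6576 to 9124 in EpCAM, 111 to 240 in FSClow and, in FSChi replicates 1 to 5, 3632, 56.1, 1439, 3219 and 1475. Stmn2 was lower in FSChi than in EpCAM by -2.34 ± 0.70, Ncam1 by -2.45 ± 0.47, Ncam2 by -2.47 ± 0.81 (adjusted p = 0.055 without FSChi replicate 2) and Ebf1 by -2.25 ± 0.50 on the log2 scale (SE, edgeR). Nrgn, which is on that list, ran the other way, with 0 to 1.73 in EpCAM and 20.8 to 62.6 in FSClow, and S100a5 (1897 in FSChi replicate 1) and Snap25 were not called between FSChi and EpCAM. Olfactory receptor genes (1126 genes, nearly all with few reads) summed to 2548 to 6691 in EpCAM, 824 to 3325 in FSChi and 284 to 680.5 in FSClow. The 824 was FSChi replicate 2, which for this sum lay above every FSClow library, unlike for the set.

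All 6 markers of immature olfactory neurons were lower in FSChi than in EpCAM. Their list median was -2.46, against -1.42 for the transduction genes and -2.1 for the 12 further genes of mature neurons. Without FSChi replicate 2 these medians were -2.23, -1.14 and -1.82. The FSChi sums of the immature markers were 1224, 398, 1083, 2501 and 272 against 4996 to 6617 in EpCAM. Gap43, a growth cone protein, stood at 85.0, 0, 68.5, 245 and 5.78 in FSChi and 489 to 791 in EpCAM (log2 fold change -2.90 ± 0.76 SE, edgeR adjusted p = 0.009). Gng8 was lower by -2.53 ± 0.65, Stmn1 by -2.39 ± 0.52 and Dpysl3 by -1.51 ± 0.30. Per 100 Omp reads, Gap43 had 0.243 to 4.21 in FSChi and 7.05 to 14.1 in EpCAM, and Stmn1 1.17 to 14.3 against 17.8 to 36.5, so both lay wholly lower, as did Gng8. Dpysl3 overlapped by this measure, with 3.16 to 13.7 in FSChi and 6.29 to 16.2 in EpCAM. The difference between the lists was not tested. Of 5 tested markers of guanylate cyclase D and vomeronasal type neurons, 3 were lower and 2 higher in FSChi than in EpCAM, Pde2a being higher by 4.54 ± 0.49. Without FSChi replicate 2, 2 were lower, since Gnao1 was no longer called (adjusted p = 0.059 against 0.027). The defining genes were low or at 0 in many libraries of both groups. Gucy2d was at 0 in 4 of 5 FSChi libraries (at most 1.24) and 2 of 5 EpCAM libraries (at most 31.7). Cnga3 was at 0 in 3 of 5 FSChi libraries (at most 7.66, in replicate 2, and 0.431 without it) and in 2 of 5 EpCAM libraries (at most 6.06).

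Markers of non-neuronal epithelial cells also moved with the transduction genes between groups, though not in the same order across FSChi libraries. Of 10 sustentacular markers 10 were lower in FSClow and 8 in FSChi than in EpCAM (6 without FSChi replicate 2), and 6 were higher in FSChi than in FSClow. They summed to 4282, 1631, 3559, 14220 and 9140 in FSChi, 1012 to 2473 in FSClow and 16730 to 34030 in EpCAM. Of 8 horizontal basal cell markers 7 were lower in FSClow and 6 in FSChi (4 without FSChi replicate 2), and 7 were higher in FSChi than in FSClow. They summed to 5654, 487, 239, 2674 and 3238 in FSChi, 106 to 390 in FSClow and 6462 to 17040 in EpCAM. FSChi replicate 2 was lowest of the 5 for the sustentacular sum, while replicate 3, not replicate 2, was lowest for the basal sum. The sustentacular genes Ermn and Cyp1a2 and the basal gene Trp63 were each at 0 in FSChi replicate 2. In the other 4 FSChi libraries they were present, with lowest values of 6.65, 15.04 and 2.585. A count of 0 in replicate 2 allows up to 7.66, which is above the values of Ermn and Trp63. Both lists hold other genes with reads there. The sustentacular gene Cyp2g1 was not low in replicate 2, which held its FSChi median of 533 in a range of 257 to 1158. All 12 tuft markers were higher in both eGFP-positive groups than in EpCAM. Leukocyte markers summed to 33.6 to 2053 in FSChi, 21.5 to 202 in FSClow and 1602 to 12400 in EpCAM. Of the 4 tested, 3 were lower in FSClow than in EpCAM and 1 was higher, while in FSChi 1 was higher and 3 were not called. The following were picked after their values were seen. Lyz2, which made up most of the EpCAM sum, stood at 1516 to 12300 there and at 0.896 to 90.0 in FSClow, whereas Ptprc, which encodes CD45, was at 0 in all 5 EpCAM libraries, stood at 13.7 to 101 in FSClow and 8.70 to 57.7 in FSChi, and was called higher in both eGFP-positive groups. Cd3e was at 0 in all libraries. The part of other cell types in the levels of the transduction genes was not tested.

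**Figure D5:**
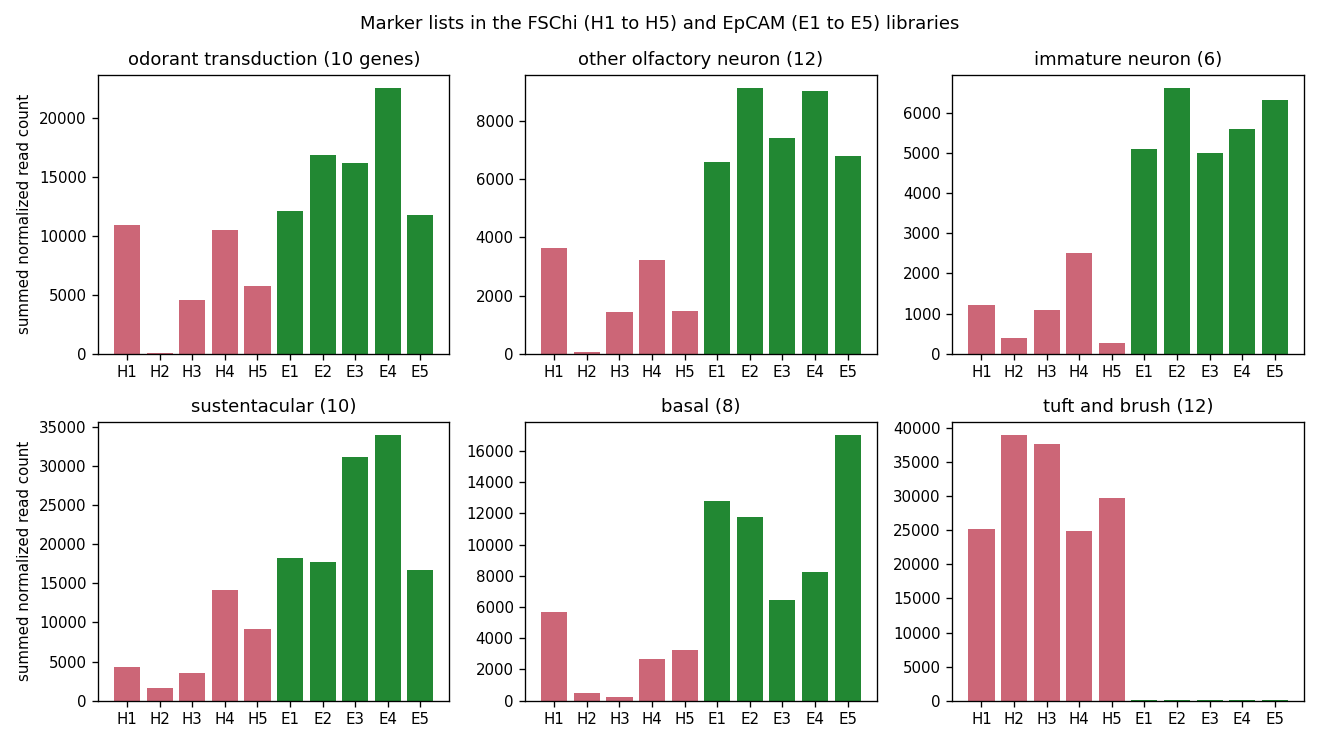
Summed normalized read counts of 6 gene lists in the FSChi libraries (H1 to H5) and EpCAM libraries (E1 to E5), 1 bar per library, each panel with its own axis from 0. The transduction genes sum to 10960, 71.5, 4530, 10520 and 5768 in H1 to H5, the sustentacular sum is highest of these in H4 (14220) and the basal sum in H1 (5654), and the tuft sum is highest in H2 (39050).

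The genes outside the set with the most similar pattern were named by the root mean square difference of centred log2 CPM (read counts scaled to library size) from the mean profile of the 10 members, over 19 libraries. They were Galnt14 (0.52), Ebf4 (0.54), Dmtn (0.59), Umodl1 (0.59), Myt1l (0.60), Gadl1 (0.62), Mapk8ip2 (0.62) and Scn3b (0.63), where the members themselves ran from 0.51 for Rtp2 to 1.58 for Stoml3. Galnt14 had log2 fold changes of -9.07 ± 0.67, -1.96 ± 0.50 and 7.12 ± 0.70 (SE) in FSClow against EpCAM, FSChi against EpCAM and FSChi against FSClow. Umodl1 and Gadl1 were not called between FSChi and EpCAM (edgeR adjusted p = 0.11 and 0.18), and the other 6 were lower there. These genes were picked for likeness over the same 19 libraries, so their fold changes and calls only describe them. Each member is also part of the mean profile to which it was compared.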

How the data were processed

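RNA sequencing libraries of 19 sorted cell samples were analysed. The build mm10 and the tools DESeq2, featureCounts, RSEM 1.2.21, Picard 1.1073 and STAR 2.4.2a are named, without roles, per the submitters' processing notes. The authors deposited raw counts per Entrez gene and a normalized signal, counts divided by a size factor: 100% of its values came out whole (tolerance 0.01) when multiplied back. Per the file headers, the single-library files hold RSEM expected counts, rounded before use, and TPM values. Unnamed genes held 0.982% of counts and stayed in library totals.

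Counts were fitted in edgeR 4.0.16 (R 4.3.3; filterByExpr by group, TMM, robust quasi-likelihood F test) over all 19 libraries with group as the term, and Benjamini-Hochberg adjustment over 13340 genes. The model was also run on simulated counts with 200 changed genes, comparison by comparison, which is fewer than were called in the data. The outcome of that run is not used here. Alternatives used DESeq2 1.42.0, limma 3.58.1 with pseudocounts of 1 and 0.5, other scalings, filters and counts, and each library left out. The SE given with a fold change is the size of the log2 fold change divided by the square root of its F statistic, since edgeR reports none. Intervals (95%) and floors (3 reads) cover counting error only. Coordinates are 1-based.

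Members and lists were chosen with earlier results of these data known. Named were all members, pathway genes and relatives, the first 4 of other lists, and the 8 genes most alike. Nrgn, S100a5, Snap25, Lyz2 and Cd3e were named after their values were seen. The values of 1 pathway gene are not reported here.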

Additional observations from a re-analysis of the deposited data

Results flagged for a closer look

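Among 30 checks of a gene in a group of libraries, 2 had 1 library far from the rest by Dixon's test. The test flags about 1 in 20 groups by chance, a rate that does not hold for groups in which nearly every library is at 0. Both lie in FSClow replicate 9. Cnga2 stood at 12.05 normalized read counts there, while the other 8 FSClow libraries held 1.42 or less, a gap of 0.882 of the whole range. Rtp2 stood at 1.096, which is a single read, while the other 8 libraries had none, so its gap is the whole range by construction. The same library had the highest Omp value of its group (145) and Stoml3 at 67.9, second to FSClow replicate 1 at 114.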

How the results depend on the processing

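The direction of every member was the same under 11 alternatives and with each of 19 libraries left out. All member calls of FSClow against EpCAM (300 comparisons with the main value) held, as did 296 of FSChi against FSClow. Between FSChi and EpCAM 288 held and 11 fell short, 10 of them for Cnga2 (adjusted p = 0.051 to 0.18) and 1 for Gnal. With only the 2 groups in the fit, 3 members were called between FSChi and EpCAM in place of 5, and 6 between FSChi and FSClow in place of 10, because the filter then kept only 6 of them; 2106 genes were called there in place of 3310. Replicate 4 was the highest FSChi library for 8 members in the normalized table and for 4 after TMM scaling. Leaving out 1 library gave 5430 to 6508 genes called for FSClow against EpCAM (6017 with all), 2702 to 3572 for FSChi against EpCAM (3421) and 2634 to 3498 for FSChi against FSClow (3310), with 10, 4 to 5 and 10 members called. Reads recovered from the normalized table, added after seeing the data, gave 5855, 3372 and 3265 genes.

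Replicate numbers were not used to pair the libraries in the main fit. With the group mean of each gene subtracted, same-numbered libraries of 2 groups correlated at -0.19 to 0.40. Libraries of different number were not compared in this way, so these values do not show whether the numbers pair them. With the replicate block 5179, 3271 and 1982 genes and 10, 6 and 10 members were called, Cngb1 being added between FSChi and EpCAM (-1.39, edgeR adjusted p = 0.038).

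Scaling shifts all genes. The median log2 fold change of FSClow against EpCAM was 0.05 with TMM, -0.14 with relative log expression and -0.17 with the authors' size factors, and of FSChi against EpCAM -0.02, -0.14 and -0.18. Called genes were 48.7% higher in FSClow against EpCAM with TMM, 38.2% with relative log expression, 35.8% with the authors' size factors, 34.2% with DESeq2, 33.5% without a filter and 28.1% with limma. For FSChi against EpCAM the share was 52.5%, and 41.2% with the authors' size factors, 42.2% with DESeq2 and 32.8% and 34.3% with limma. For FSChi against FSClow it was 62.5%, and 73.3% without a filter. Depth limits the low end: FSClow levels of Cnga2, Cnga4, Cngb1, Ano2, Rtp1 and Rtp2 rest on 1 to 50 reads, and Adcy3 there depends on the read assignment.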
